A study of Homo sapiens with 9 samples.

Results

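The genes described here were 10 growth factor receptor kinases, EGFR, ERBB2, ERBB3, MET, AXL, FGFR1, FGFR2, IGF1R, PDGFRB and KIT. They were chosen by gene symbol from the 60617 Ensembl genes of the count files. The RNA-seq libraries came from PC-3, an established human cell line of castration-resistant prostate cancer. There were 3 libraries of control cells, 3 libraries after 1 µM of decitabine and 3 from cells that received 1 µM of decitabine together with 200 µM of S-adenosylmethionine (SAM), written SAM/decitabine below. All groups were taken after 5 days, and the study's methods give a vehicle for the control cells. The doses are those of the study's methods. Decitabine is an analog of deoxycytidine that is built into DNA and traps the DNA methyltransferases, and SAM is the methyl donor of the cell. The labels name no allele or transgene, all libraries came from the same line, and the labels do not say whether the 3 libraries of a group were separate cultures, so p-values measure only the spread between these libraries.

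Receptor tyrosine kinases span the cell membrane, bind a growth factor outside the cell and phosphorylate tyrosines inside it, which recruits adaptors and starts the RAS-ERK and PI3K-AKT cascades. EGFR, ERBB2 and ERBB3 belong to the ERBB family and signal as pairs. ERBB2 has no known ligand, and ERBB3 has a weak kinase and signals through its partner. MET binds hepatocyte growth factor, AXL binds GAS6, FGFR1 and FGFR2 bind fibroblast growth factors, IGF1R binds insulin-like growth factors, PDGFRB binds platelet-derived growth factors and KIT binds stem cell factor. In prostate cancer, several of these receptors are studied as routes of growth without androgen.

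Promoter sequences were printed because decitabine acts on the enzymes that methylate CG dinucleotides. No methylation was measured in these files. Windows of 300 bases, 250 before and 50 after a transcript start, were taken from RefSeq on GRCh38.p14, and 8 of the 10 receptor genes matched one. CG dinucleotides are in capitals, and each sequence runs 5′ to 3′ on the strand of its gene, which is the plus strand for these genes. IGF1R had the largest increase of the 8 tested among the 10 receptors, at chr15:98648289-98648588. ERBB2, at chr17:39687844-39688143, and MET, at chr7:116671946-116672245, also rose. AXL, at chr19:41218973-41219272, was the one of the 10 that fell. KIT, at chr4:54657707-54658006, had almost no counts.
IGF1R: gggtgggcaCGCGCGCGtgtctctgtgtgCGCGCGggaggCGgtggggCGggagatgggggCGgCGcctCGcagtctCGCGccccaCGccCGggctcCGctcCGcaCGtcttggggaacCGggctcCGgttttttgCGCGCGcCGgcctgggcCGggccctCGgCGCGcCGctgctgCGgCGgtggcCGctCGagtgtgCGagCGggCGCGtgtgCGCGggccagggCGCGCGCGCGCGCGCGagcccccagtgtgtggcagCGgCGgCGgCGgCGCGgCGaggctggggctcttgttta
ERBB2: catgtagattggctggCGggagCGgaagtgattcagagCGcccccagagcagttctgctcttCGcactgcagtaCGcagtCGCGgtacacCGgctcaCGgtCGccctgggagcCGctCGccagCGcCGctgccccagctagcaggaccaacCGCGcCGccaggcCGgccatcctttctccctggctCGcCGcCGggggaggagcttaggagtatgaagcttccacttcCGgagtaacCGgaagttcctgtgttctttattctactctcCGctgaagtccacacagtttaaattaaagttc
MET: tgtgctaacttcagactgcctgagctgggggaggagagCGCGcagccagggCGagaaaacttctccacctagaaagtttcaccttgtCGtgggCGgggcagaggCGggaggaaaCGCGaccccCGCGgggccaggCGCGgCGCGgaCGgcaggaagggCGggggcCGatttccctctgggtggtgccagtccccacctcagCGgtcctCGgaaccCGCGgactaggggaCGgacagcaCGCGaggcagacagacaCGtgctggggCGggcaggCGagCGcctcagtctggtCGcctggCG
AXL: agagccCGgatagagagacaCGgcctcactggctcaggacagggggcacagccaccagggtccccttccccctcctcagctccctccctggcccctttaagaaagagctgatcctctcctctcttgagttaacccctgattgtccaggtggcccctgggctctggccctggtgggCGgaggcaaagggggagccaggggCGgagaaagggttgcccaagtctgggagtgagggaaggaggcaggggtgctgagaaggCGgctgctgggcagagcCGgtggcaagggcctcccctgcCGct
KIT: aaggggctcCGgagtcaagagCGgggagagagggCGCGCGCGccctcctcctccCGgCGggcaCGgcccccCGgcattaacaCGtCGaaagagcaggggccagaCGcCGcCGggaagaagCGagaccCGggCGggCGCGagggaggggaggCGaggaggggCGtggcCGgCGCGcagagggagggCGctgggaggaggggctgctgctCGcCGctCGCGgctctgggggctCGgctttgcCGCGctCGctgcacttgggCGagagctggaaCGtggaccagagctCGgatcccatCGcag
The IGF1R window held 55 CG, and 99.7% of the 35116 windows of the RefSeq table held as many or fewer. The KIT window held 38, the EGFR window 33, the MET window 30, the ERBB2 window 24, the PDGFRB window 11 and the AXL window 7. The median over all windows was 14 CG (quartiles 4 and 28), and 96.0% held at least 1. FGFR2 had 5 windows, and the one at its gene start held 52. A second AXL window, 7532 bases from the first start, held 17, and a second EGFR window, 90822 bases from the gene start, held 1. The start used for ERBB2 lay 180 bases from the gene start of GENCODE release 44, and that for KIT 690 bases. The letters GGGCGG, searched on both strands, were in the windows of IGF1R, KIT, MET and PDGFRB, and not in the ERBB2 window. The gene-start windows of EGFR, AXL and FGFR2 and the FGFR2 window with 8 CG held these letters too. The second windows of EGFR and AXL and the remaining FGFR2 windows did not hold these letters. They were in 45.0% of all windows. The IGF1R window belonged to a receptor that rose 4.71-fold under decitabine, and the KIT window to one with almost no counts in any group. The relation of CG content to expression was not tested.

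Libraries held between 21934307 and 22489684 estimated counts. Of all genes, 18532 passed a filter on low counts and were tested together with edgeR's quasi-likelihood test, with p-values adjusted by the Benjamini-Hochberg method over all genes tested and a threshold of 0.05. All adjusted p-values below come from this fit. Levels are CPM (counts scaled to a common library total) after TMM scaling. The TMM factors lay at 0.8948 to 0.9021 for control cells, 1.058 to 1.078 under decitabine and 1.033 to 1.07 under SAM/decitabine. Over all genes tested, the median log2 fold change came to 0.035 under decitabine and 0.048 under SAM/decitabine. With library size as the only scaling, these medians were 0.281 and 0.268, and the changes of the receptors shifted along with them. That scaling also moved the upregulated share of all genes called from 52.7% to 70.3% under decitabine and from 53.4% to 69.3% under SAM/decitabine. Bulk libraries cannot tell a change in the number of cells that express a gene from a change of its RNA per cell.

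Against the controls, IGF1R, ERBB2, ERBB3, MET and FGFR1 rose and AXL fell under both treatments. EGFR and PDGFRB did not pass the threshold, and FGFR2 and KIT had too few counts to be tested. Thus, 6 of the 8 receptor genes tested (75.0%) were called under decitabine, beside 68.8% of all genes tested. Under SAM/decitabine, 6 of 8 were called again, beside 67.2% of all genes. These shares lie near the background, and the number of changed receptors is therefore no result about receptors. Of the 8, 5 were higher with each treatment, where 36.3% of all genes were higher under decitabine and 35.9% under SAM/decitabine. The receptor that was lower stands beside 32.5% and 31.3% of all genes. The 3 libraries of the treated group did not overlap with the controls for 6 of the 8, as for 72.9% of all genes under decitabine and 71.6% under SAM/decitabine. Both comparisons use the same 3 control libraries. Of the 8, PDGFRB passed the filter on low counts only with its treated libraries. Between the treatments, 1 of the 8 receptor genes (12.5%) was called, beside 15.7% of all genes tested. It was lower, like 8.02% of all genes, and 0 were higher, where 7.67% of all genes were. At an unadjusted p under 0.05, 0 were higher and 2 lower, and DESeq2 as well as voom with limma called 0 higher and 1 lower. The groups did not overlap for this 1 receptor, as for 34% of all genes. With a log2 fold change over 1 in size required as well, 3 receptors were higher and 0 lower under decitabine, beside 22.7% and 6.15% of all genes. Under SAM/decitabine, 2 were higher and 1 lower, beside 21.4% and 6.56%. Between both treatments 0 receptors passed this limit, beside 0.399% of all genes higher and 1.74% lower.

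**Figure D1:**
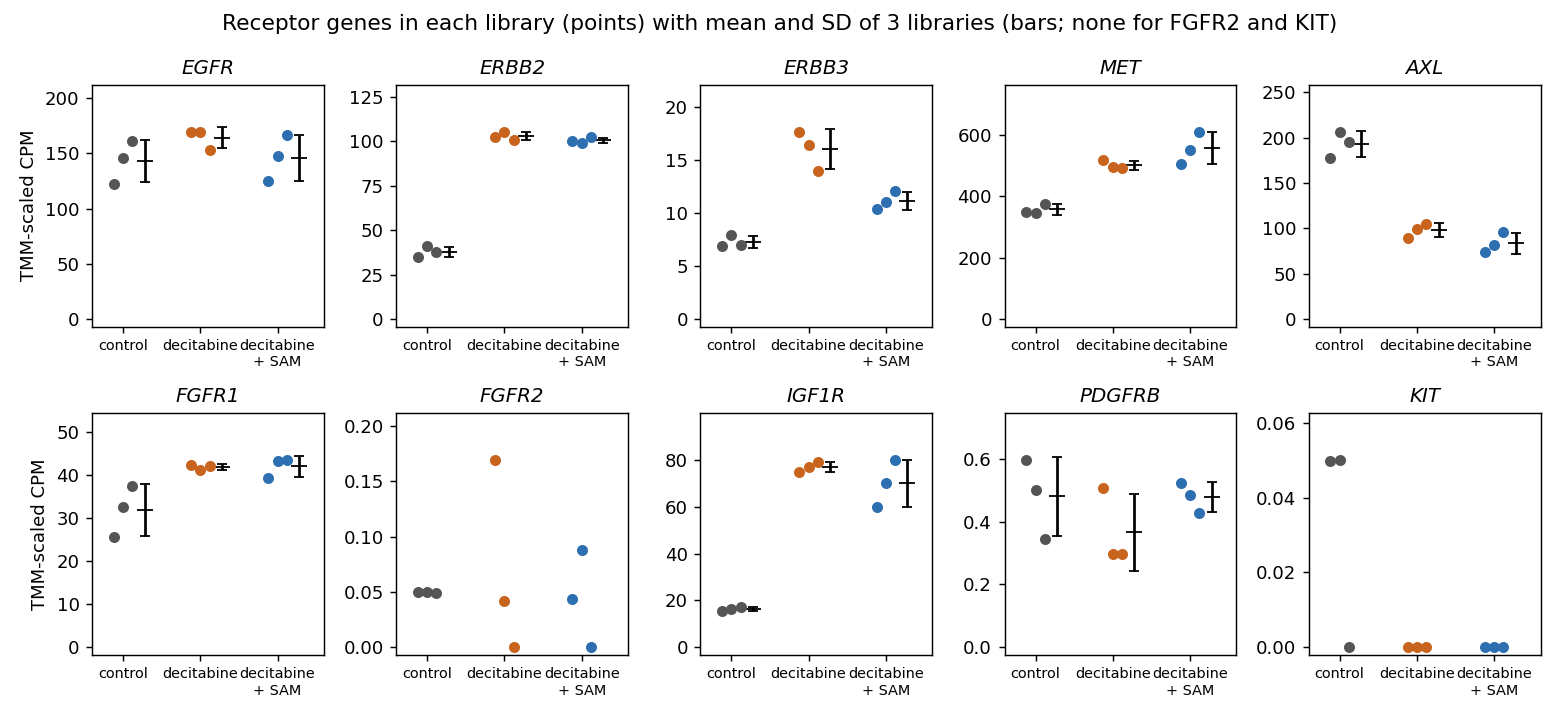
TMM-scaled CPM of the 10 receptor genes in each of the 9 libraries (points), with mean ± SD of 3 libraries (bars, not drawn for FGFR2 and KIT), each panel on its own linear axis. All 3 treated libraries of each treatment lie above the controls for ERBB2, ERBB3, MET, FGFR1 and IGF1R and below them for AXL, while FGFR2 and KIT stay under 0.2 CPM in every library.

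EGFR (ENSG00000146648, chromosome 7, 55019017 to 55211628, plus strand) had 123, 146 and 161 CPM in control cells. It had 170, 170 and 154 CPM under decitabine and 125, 147 and 166 CPM under SAM/decitabine. The ranges of each treated group overlapped with the controls. Its log2 fold change was 0.20 under decitabine (standard error 0.11, adjusted p = 0.13, 95% interval -0.04 to 0.44). Under SAM/decitabine it was 0.03 (adjusted p = 0.83, interval -0.21 to 0.27). The decitabine difference was called with library size alone (0.44, adjusted p = 0.0051), with only the 6 libraries compared (0.22, adjusted p = 0.047) and without control replicate 3 (0.28, adjusted p = 0.048).

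ERBB2 (ENSG00000141736, chromosome 17, 39687914 to 39730426, plus strand) had 35.1, 41 and 37.5 CPM in control cells. Decitabine-treated libraries had 103, 105 and 101 CPM, and those of SAM/decitabine 100, 99.4 and 102 CPM. Every treated library lay far above the controls, and the treated groups overlapped with each other. The increase was 2.72-fold under decitabine (log2 1.45 ± 0.07 SE, adjusted p = 7.6e-10). It was 2.66-fold under SAM/decitabine (log2 1.41 ± 0.07 SE, adjusted p = 1e-09). The difference between both treatments was -0.03 on the log2 scale (adjusted p = 0.77), with an interval from -0.18 to 0.11. Exons of ERBB2 overlap those of MIEN1 and PGAP3 on the opposite strand, and no strand setting is given for the counting in the sources used here. These genes were chosen after their values were seen. MIEN1 fell, with log2 fold changes of -0.95 under decitabine (adjusted p = 5.1e-07) and -0.95 under SAM/decitabine (adjusted p = 5.6e-07). PGAP3 had -0.23 under decitabine (adjusted p = 0.17) and fell under SAM/decitabine (log2 -0.47, adjusted p = 0.011).

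ERBB3 (ENSG00000065361, chromosome 12, 56076799 to 56103505, plus strand) was the one of the 10 receptors called between both treatments. It had 6.85, 7.9 and 7.01 CPM in control cells, 17.7, 16.4 and 14 CPM under decitabine and 10.4, 11 and 12.1 CPM under SAM/decitabine. The 3 groups did not overlap, and SAM/decitabine lay between the others. The increase over control cells was 2.21-fold under decitabine (log2 1.14 ± 0.12 SE, adjusted p = 1.4e-06) and 1.53-fold under SAM/decitabine (log2 0.62 ± 0.12 SE, adjusted p = 0.00049). SAM/decitabine against decitabine gave a log2 fold change of -0.52 (SE 0.12, adjusted p = 0.0098, interval -0.77 to -0.27). This call was lost without decitabine replicate 2 (-0.51, adjusted p = 0.051) and without SAM/decitabine replicate 2 (-0.51, adjusted p = 0.055). ERBB4, the remaining member of the family, had 0.381 CPM in control cells, 0.775 CPM under decitabine and 0.694 CPM under SAM/decitabine, and it passed the filter only through its treated libraries.

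The ligands of the ERBB receptors are shed or secreted growth factors. Under decitabine, 9 of the 10 tested of 11 listed rose and 1 fell, with a median log2 fold change of 1.61 beside 0.035 for all genes tested. Under SAM/decitabine, 7 rose, 1 fell and 2 did not pass the threshold, with a median of 1.13. Of all genes tested, 36.3% rose and 32.5% fell under decitabine, and 35.9% and 31.3% under SAM/decitabine. Because 4 of the 10 ligands passed the filter only through their treated libraries, these numbers are a description. Epiregulin (EREG), a ligand of EGFR and ERBB4, had 1.24, 1.85 and 1.23 CPM in control cells. It reached 32.6, 33.8 and 25.5 CPM under decitabine and 23.9, 22.7 and 25.6 CPM under SAM/decitabine, log2 fold changes of 4.41 (adjusted p = 5e-11) and 4.06 (adjusted p = 1.2e-10). Epigen (EPGN), another EGFR ligand, had 0.298 CPM in control cells and was among those that passed only through treated libraries. HBEGF, a heparin-binding ligand, rose from 15.7 CPM to 47.4 CPM under decitabine (log2 1.60, adjusted p = 2.1e-07) and 41.3 CPM under SAM/decitabine (log2 1.40, adjusted p = 7.7e-07). Betacellulin (BTC) rose by 1.92 under decitabine and by 1.18 under SAM/decitabine, and its difference of -0.75 between both treatments was called (adjusted p = 0.0057).

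NRG1 (neuregulin 1), a ligand of ERBB3 and ERBB4, had no counts in control cells, which allows up to 3 counts. It had 1.94, 2.07 and 1.86 CPM under decitabine and 0.827, 1.23 and 1.92 CPM under SAM/decitabine. Set against 3 counts over the control group, this was at least 39.4-fold higher under decitabine and at least 26.8-fold higher under SAM/decitabine. NRG2, its relative, was the ligand that fell, from 35.3 CPM in control cells to 9.69 CPM under decitabine (log2 -1.86, adjusted p = 1.1e-07) and 11.3 CPM under SAM/decitabine (log2 -1.64, adjusted p = 3.5e-07). NRG3 was not tested.

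MET (ENSG00000105976, chromosome 7, 116672196 to 116798377, plus strand) had the highest level of the 10 receptors in all groups. It had 349, 346 and 376 CPM in control cells, 517, 494 and 490 CPM under decitabine and 506, 551 and 610 CPM under SAM/decitabine. Each treated library lay above every control. The increase was 1.4-fold under decitabine (log2 0.49 ± 0.08 SE, adjusted p = 6.9e-05) and 1.56-fold under SAM/decitabine (log2 0.64 ± 0.08 SE, adjusted p = 5.8e-06). The difference of 0.15 between both treatments did not pass the threshold (adjusted p = 0.2, interval -0.02 to 0.32). The MET ligand HGF had 2 counts in all controls, 35 under decitabine and 85 under SAM/decitabine. HGF passed the filter on low counts only through its treated libraries, so no test against the controls is given. It stayed at or under 1.72 CPM. HGF was not among the genes chosen by rule and was named after its values were seen. MST1R, the relative of MET that binds macrophage-stimulating protein, had 60.4, 57.7 and 55.1 CPM in control cells. It rose to 134, 116 and 113 CPM under decitabine (log2 1.07, adjusted p = 8.2e-07) and to 70.1, 64.9 and 88.2 CPM under SAM/decitabine (log2 0.37, adjusted p = 0.007). Its difference of -0.70 between both treatments was called (adjusted p = 0.0014) and held under all 17 alternatives.

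AXL (ENSG00000167601, chromosome 19, 41219223 to 41261766, plus strand) was the one of the 10 receptors that fell. It had 178, 207 and 195 CPM in control cells, 89.6, 99.4 and 105 CPM under decitabine and 73.6, 81.1 and 96.3 CPM under SAM/decitabine. No treated library reached the lowest control. The level was 1.97-fold lower under decitabine (log2 -0.98 ± 0.10 SE, adjusted p = 7.1e-07) and 2.31-fold lower under SAM/decitabine (log2 -1.21 ± 0.10 SE, adjusted p = 1e-07). The difference of -0.23 between both treatments did not pass the threshold (adjusted p = 0.13, interval -0.44 to -0.02). It was called under 2 of 17 alternatives, among them the fit without SAM/decitabine replicate 3 (-0.34, adjusted p = 0.015). TYRO3, a relative of AXL, rose by 0.93 under decitabine (adjusted p = 4e-07) and by 1.27 under SAM/decitabine (adjusted p = 1.8e-08). Its difference of 0.34 between both treatments (adjusted p = 0.015) was lost without decitabine replicate 2 (adjusted p = 0.080), SAM/decitabine replicate 1 (adjusted p = 0.058) or SAM/decitabine replicate 2 (adjusted p = 0.064). MERTK, another receptor of this family, had log2 fold changes of 0.23 (adjusted p = 0.012) and 0.11 (adjusted p = 0.22). The shared ligand GAS6 had 16.3, 18.4 and 17.8 CPM in control cells, 15.9, 20.2 and 23.3 CPM under decitabine and 8.93, 10.2 and 13.3 CPM under SAM/decitabine. GAS6 fell under SAM/decitabine against the controls (log2 -0.69, adjusted p = 0.0015) and against decitabine (log2 -0.87, adjusted p = 0.0038), and under decitabine it had 0.18 (adjusted p = 0.31).

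FGFR1 (ENSG00000077782, chromosome 8, 38400215 to 38468834, minus strand) rose less than the others of the 10 receptors that were called higher. It had 25.6, 32.7 and 37.4 CPM in control cells, 42.4, 41.1 and 42.2 CPM under decitabine and 39.3, 43.3 and 43.5 CPM under SAM/decitabine. The groups did not overlap with the controls, although control replicate 3 lay close to them. The increase was 1.31-fold under decitabine (log2 0.39 ± 0.11 SE, adjusted p = 0.0054) and 1.32-fold under SAM/decitabine (log2 0.40 ± 0.11 SE, adjusted p = 0.0051). Without control replicate 1, these values were 0.25 (adjusted p = 0.027) and 0.25 (adjusted p = 0.024), and with library size alone 0.64 and 0.62. SAM/decitabine stood at 0.01 against decitabine (adjusted p = 0.98), with an interval from -0.23 to 0.24. FGFR1 shares exon positions with LETM2 on the opposite strand, which had -0.13 (adjusted p = 0.2) and -0.35 (adjusted p = 0.0022) and was named after its values were seen.

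FGFR2 (ENSG00000066468, chromosome 10, 121478332 to 121598458, minus strand), whose epithelial form binds FGF7 and FGF10, had 1, 1 and 1 counts in control cells. It had 4, 1 and 0 counts under decitabine and 1, 2 and 0 under SAM/decitabine. The ratio of decitabine to control was 1.42 with a 95% interval from 0.276 to 9.13, so a difference was not detectable at this depth. Of the relatives, FGFR3 had 0.0993, 0.15 and 0.148 CPM in control cells. It had 2.07, 1.69 and 3.18 CPM under decitabine and 3.53, 4.14 and 3.75 CPM under SAM/decitabine. FGFR3 passed the filter on low counts only through its treated libraries, so no test against the controls is given for it. Its difference of 0.72 between both treatments (adjusted p = 0.045) held under 7 of 17 alternatives, with adjusted p-values up to 0.19. FGFR4 rose by 0.59 (adjusted p = 0.0014) and by 0.90 (adjusted p = 3.6e-05). Among the growth factors, FGF1 rose from 1.11 CPM to 6.29 CPM under decitabine and 4.96 CPM under SAM/decitabine, and FGF7 from 0.762 CPM to 3.30 CPM and 3.18 CPM. FGF9 had no counts.

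IGF1R (ENSG00000140443, chromosome 15, 98648539 to 98964530, plus strand) had the largest increase of the 8 tested among the 10 receptors. It had 15.5, 16.4 and 17.1 CPM in control cells, 74.7, 77.2 and 79 CPM under decitabine and 60, 70.2 and 80 CPM under SAM/decitabine. All treated libraries lay far above the controls, and the SAM/decitabine libraries spread more widely (SD 9.98 CPM) than the decitabine libraries (SD 2.16 CPM). The increase was 4.71-fold under decitabine (log2 2.23 ± 0.10 SE, adjusted p = 2.9e-10) and 4.29-fold under SAM/decitabine (log2 2.10 ± 0.10 SE, adjusted p = 5.5e-10). SAM/decitabine stood at -0.14 against decitabine (adjusted p = 0.34), with an interval from -0.33 to 0.06. INSR, the insulin receptor and closest relative of IGF1R, fell from 37.1 CPM to 21.2 CPM with each treatment, log2 fold changes of -0.81 (adjusted p = 1e-06) and -0.81 (adjusted p = 1.1e-06).

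The ligand IGF2 had 0.248, 0.45 and 0.839 CPM in control cells, 11.5, 10.3 and 11.2 CPM under decitabine and 11, 15.7 and 10.1 CPM under SAM/decitabine. The treated libraries lay above all controls, but IGF2 passed the filter only through them, so no test is given. IGF1 was not tested and stayed under 0.1 CPM. The IGF binding proteins carry these ligands outside the cell. Of 7 listed, 5 were tested, of which 4 rose and 1 fell under decitabine (median log2 1.25) and 3 rose and 1 fell under SAM/decitabine (median 1.34), beside 68.8% and 67.2% of all genes called. Of the 5, IGFBP2 passed the filter only through its treated libraries and was named after its values were seen. IGFBP4, the most abundant, fell from 480, 549 and 482 CPM to 144, 163 and 170 CPM under decitabine (log2 -1.66, adjusted p = 7.5e-10) and 172, 165 and 161 CPM under SAM/decitabine (log2 -1.60, adjusted p = 1.1e-09). IGFBP3, the main carrier in blood, rose by 1.74 (adjusted p = 8.2e-05) and by 1.43 (adjusted p = 0.00033). IGFBP6, which prefers IGF2, rose by 1.41 and by 1.34. IGFBP1 rose under decitabine (log2 0.60, adjusted p = 0.017), a call lost without control replicate 2 (adjusted p = 0.085) or decitabine replicate 2 (adjusted p = 0.051). It was lower under SAM/decitabine than under decitabine (log2 -0.77, adjusted p = 0.021), a call lost without decitabine replicate 2 (adjusted p = 0.081), SAM/decitabine replicate 1 (adjusted p = 0.058) or SAM/decitabine replicate 2 (adjusted p = 0.11).

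PDGFRB (ENSG00000113721, chromosome 5, 150113839 to 150155872, minus strand), a receptor of fibroblasts and pericytes, was near the lower limit of counting. It had 12, 10 and 7 counts in control cells, 12, 7 and 7 under decitabine and 12, 11 and 10 under SAM/decitabine. PDGFRB reached the minimum of the filter in 2 control, 1 decitabine and 3 SAM/decitabine libraries, so it passed only with treated libraries. All groups overlapped, at 0.481 ± 0.126, 0.366 ± 0.122 and 0.477 ± 0.0486 CPM (SD, n = 3). The log2 fold changes were -0.39 under decitabine (SE 0.39, adjusted p = 0.39, interval -1.22 to 0.45) and -0.01 under SAM/decitabine (SE 0.38, adjusted p = 0.98, interval -0.81 to 0.79). Its relative PDGFRA had 1.29, 1.6 and 1.48 CPM in control cells, 5.45, 5.27 and 5.38 CPM under decitabine and 11.5, 7.13 and 7.37 CPM under SAM/decitabine. PDGFRA rose by 1.88 (adjusted p = 2.8e-06) and by 2.56 (adjusted p = 1.1e-07). The difference of 0.69 between both treatments (adjusted p = 0.02) was lost without SAM/decitabine replicate 1 (0.43, adjusted p = 0.11) or decitabine replicate 2 (0.67, adjusted p = 0.081). The ligand PDGFB rose from 9.07 CPM to 43.8 CPM under decitabine (log2 2.27, adjusted p = 2.1e-10) and 39.4 CPM under SAM/decitabine (log2 2.12, adjusted p = 4.1e-10).

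KIT (ENSG00000157404, chromosome 4, 54657267 to 54740783, plus strand), the receptor of mast cells, melanocytes and blood progenitors, had 1, 1 and 0 counts in control cells and none in any treated library. A count of 0 allows up to 3 counts, or 0.127 to 0.15 CPM depending on the library, so no change could be seen at this depth. Its ligand KITLG (stem cell factor) was abundant and had 41.4, 49.3 and 56.4 CPM in control cells. It rose to 92.6, 107 and 120 CPM under decitabine (log2 1.12, adjusted p = 8.8e-05) and to 99.8, 110 and 142 CPM under SAM/decitabine (log2 1.26, adjusted p = 3.9e-05). KITLG fell outside the rule for named genes and was named after its values were seen.

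**Figure D2:**
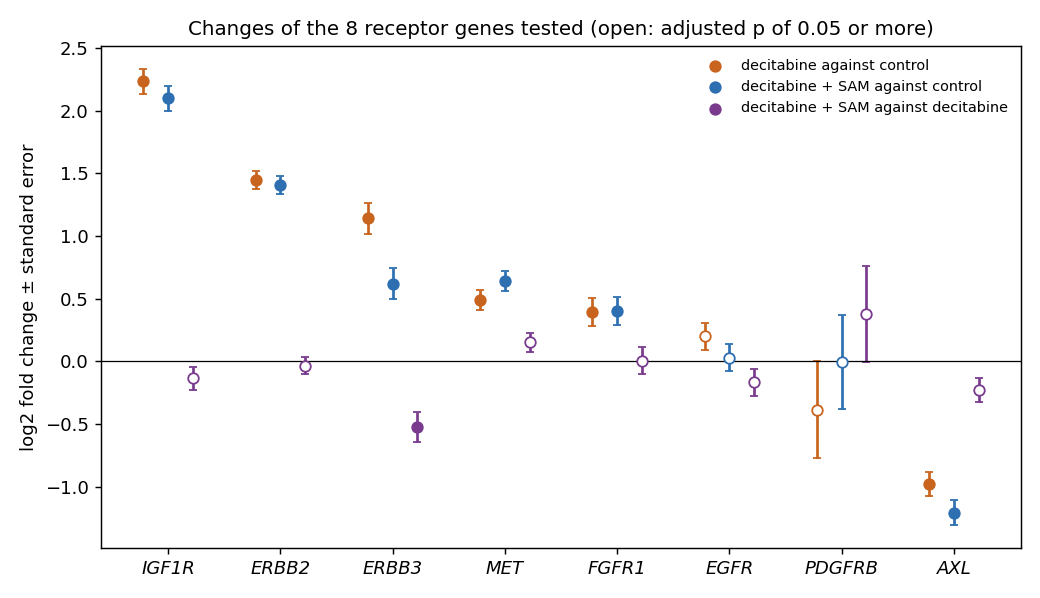
Log2 fold changes ± standard error of the 8 receptor genes tested in the 3 comparisons (filled: adjusted p under 0.05, open: not). IGF1R, ERBB2, ERBB3, MET and FGFR1 lie above 0 and AXL below 0 against the controls, and ERBB3 is the one filled point between both treatments.

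Counted over the whole lists, 7 of the 8 tested of 11 other receptors of these families rose under decitabine and 1, INSR, fell. Under SAM/decitabine, 6 rose, 1 fell and 1 did not pass the threshold. These counts stand beside 36.3% of all genes that rose and 32.5% that fell under decitabine, and 35.9% and 31.3% under SAM/decitabine. The median log2 fold changes of these other receptors were 0.97 and 0.88. They were 0.44 and 0.51 for the 8 receptors of the main set and 0.035 and 0.048 for all genes tested. Between the treatments, FGFR3, PDGFRA and TYRO3 were higher and MST1R lower under SAM/decitabine, with 4 of 8 called beside 15.7% of all genes. Of 17 alternatives, the call held under 7 for FGFR3, 14 for TYRO3, 15 for PDGFRA and 17 for MST1R. Of 17 other ligands, 13 were tested. Of these, 9 rose and 1 fell under decitabine (median log2 1.25), and 9 rose and 2 fell under SAM/decitabine (median 1.26), beside 68.8% and 67.2% of all genes called in either direction. Between the treatments, HGF was higher and GAS6 lower under SAM/decitabine, 15.4% of the 13 beside 15.7% of all genes. HGF reached the minimum of the filter in 2 of 3 decitabine libraries, so its call is a description. Each of these lists holds 2 genes that passed the filter only through treated libraries, FGFR3 and ERBB4 among the receptors and IGF2 and HGF among the ligands. The counts of both lists against the controls are therefore a description. FGF9 and IGF1 were among those not tested.

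Compared per kilobase of the Ensembl canonical transcript, the receptors spanned a wide range in control cells. MET led at 52.3 ± 2.46 CPM per kilobase (SD, n = 3), followed by AXL at 41.0 ± 3.08, EGFR at 14.5 ± 1.95, ERBB2 at 8.30 ± 0.653 and FGFR1 at 5.60 ± 1.05. IGF1R at 1.34 ± 0.0631 and ERBB3 at 1.29 ± 0.101 overlapped over the libraries and did not differ beyond their spread. PDGFRB followed at 0.0843, then FGFR2 and KIT. Under decitabine, MET stood at 73.3 ± 2.12, ERBB2 at 22.6 ± 0.489 and AXL at 20.8 ± 1.65 CPM per kilobase, and the last 2 overlapped. EGFR followed at 16.6 ± 0.938, FGFR1 at 7.36 ± 0.119, IGF1R at 6.29 ± 0.177 and ERBB3 at 2.85 ± 0.335. Under SAM/decitabine, the order was MET (81.4 ± 7.63), ERBB2 (22.1 ± 0.344), AXL (17.7 ± 2.45), EGFR (14.8 ± 2.10), FGFR1 (7.38 ± 0.418), IGF1R (5.73 ± 0.816) and ERBB3 (1.98 ± 0.152), and AXL and EGFR overlapped. AXL thus ranked above EGFR and ERBB2 in control cells and below ERBB2 under each treatment. This order depends on the length used. Per kilobase of all merged exons, AXL ranked next to MET under each treatment, at 19.1 under decitabine, where ERBB2 had 9.98 and EGFR 10.3, and IGF1R stood above FGFR1.

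**Figure D3:**
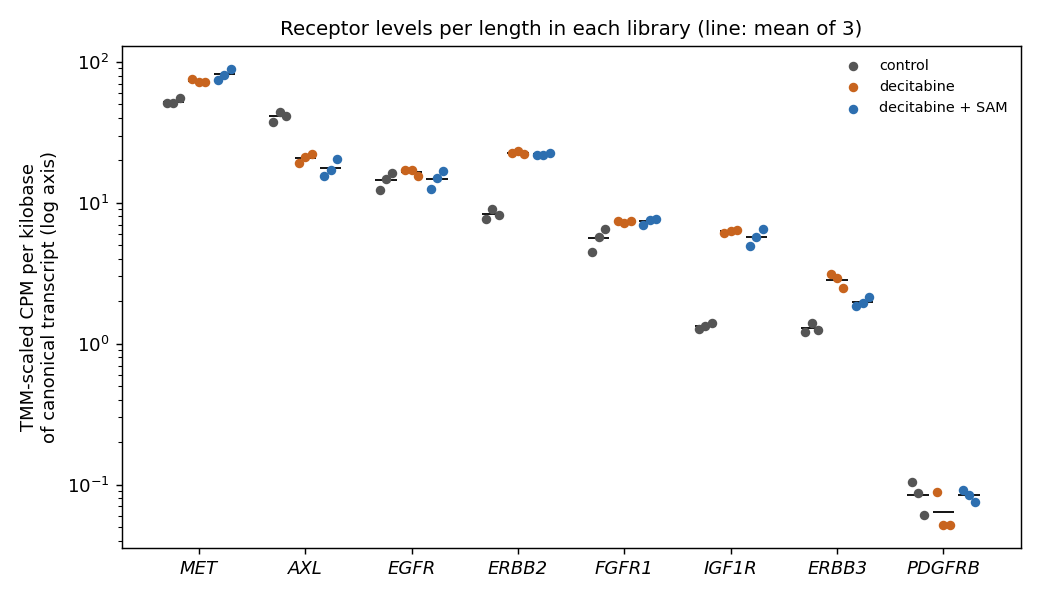
TMM-scaled CPM per kilobase of canonical transcript on a log axis for the 8 receptor genes tested, in each of the 9 libraries (points) with the mean of 3 (lines). MET is highest in every group, and ERBB2 and IGF1R rise while AXL falls from control to treated libraries.

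Adaptors bind the phosphorylated receptors and pass the signal on. Of 18 tested, 8 rose and 4 fell under decitabine, and 7 rose and 7 fell under SAM/decitabine, with medians of 0.009 and 0.13. These are 66.7% and 77.8% of the list, where 68.8% and 67.2% of all genes were called. GRB7, an adaptor that binds ERBB2 and whose gene is its neighbour on chromosome 17, had the largest change. It had 1.74, 2.05 and 1.83 CPM in control cells, 7.99, 9.32 and 11.3 CPM under decitabine and 10.5, 11.3 and 9.29 CPM under SAM/decitabine (log2 2.35 and 2.46, adjusted p = 3.4e-08 and 2e-08). CBLB, a ubiquitin ligase that marks receptors for degradation, rose by 1.06 and by 1.24, and IRS2, a docking protein of IGF1R and the insulin receptor, by 0.71 and by 0.92. GRB10, which inhibits IGF1R and the insulin receptor, fell by 0.66 under decitabine and by 0.60 under SAM/decitabine on the log2 scale. SHC1, which links receptors to RAS, rose by 0.67 and by 0.33 and was lower under SAM/decitabine than under decitabine (log2 -0.35, adjusted p = 0.014, lost without SAM/decitabine replicate 1 at 0.059 or SAM/decitabine replicate 2 at 0.085). The phosphatase PTPN11 fell by 0.52 under decitabine (adjusted p = 6.3e-06) and by 0.31 under SAM/decitabine (adjusted p = 0.00062) on the log2 scale. Between both treatments it was higher under SAM/decitabine (log2 0.21, adjusted p = 0.043), a call that held under 6 of 17 alternatives, with adjusted p-values up to 0.15.

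Feedback inhibitors damp the receptors or the ERK cascade. Of 13 tested, 4 rose and 6 fell with each treatment, with median log2 fold changes of -0.21 and -0.17. Among those counted as higher, LRIG1 passed the filter only through its treated libraries and was named after its values were seen. The share called was 76.9% with each treatment, beside 68.8% and 67.2% of all genes. DUSP5, a phosphatase of nuclear ERK, had 64.6, 60.6 and 51 CPM in control cells, 147, 159 and 149 CPM under decitabine and 111, 100 and 117 CPM under SAM/decitabine. It rose by 1.37 (adjusted p = 1.1e-08) and by 0.89 (adjusted p = 7.4e-07), and its difference of -0.48 between both treatments was called (adjusted p = 0.0037). SPRY4 and SPRED1, inhibitors of the RAS-ERK cascade, fell by 0.81 and by 0.52 under decitabine and by 0.99 and by 0.60 under SAM/decitabine on the log2 scale. ERRFI1, an inhibitor of the EGFR kinase, fell by 0.54 and by 0.60. SH2B3 rose by 0.60 under decitabine and by 0.33 under SAM/decitabine and differed by -0.28 between them (adjusted p = 0.026), and DUSP4 differed by 0.32 (adjusted p = 0.014). The call of SH2B3 held under 13 and that of DUSP4 under 14 of 17 alternatives, and both were lost without decitabine replicate 2 (adjusted p = 0.12 and 0.063), SAM/decitabine replicate 1 (adjusted p = 0.088 and 0.056) or SAM/decitabine replicate 2 (adjusted p = 0.13 and 0.072). SH2B3 was also lost without decitabine replicate 1 (adjusted p = 0.057).

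ERK activity is known to induce a further list of genes. Of 12 tested, 5 rose and 6 fell under decitabine, and 5 rose and 5 fell under SAM/decitabine, with medians of -0.26 and -0.02. Among those counted as higher, EGR1 passed the filter only through its treated libraries and was named after its values were seen. Of all genes, 36.3% rose and 32.5% fell under decitabine, and 35.9% and 31.3% under SAM/decitabine. FOSL1, a partner in the AP-1 factor, had 396, 439 and 421 CPM in control cells, 198, 216 and 236 CPM under decitabine and 198, 227 and 211 CPM under SAM/decitabine, log2 fold changes of -0.95 (adjusted p = 1.6e-07) and -0.98 (adjusted p = 1.2e-07). The ETS factor ETV1 fell by 0.94 and by 0.69 on the log2 scale. FOS, another AP-1 partner, rose from 1.07 CPM to 4.56 CPM and 6.45 CPM, and the ephrin receptor EPHA4 from 2.42 CPM to 11.3 CPM and 9.03 CPM. The survival gene IER3 rose by 0.80 and by 0.91. Between both treatments, edgeR's test called 0 of the 12, beside 15.7% of all genes. At an unadjusted p under 0.05, 3 of them were higher under SAM/decitabine and 0 lower, and DESeq2 called 1 and voom with limma 0.

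**Figure D4:**
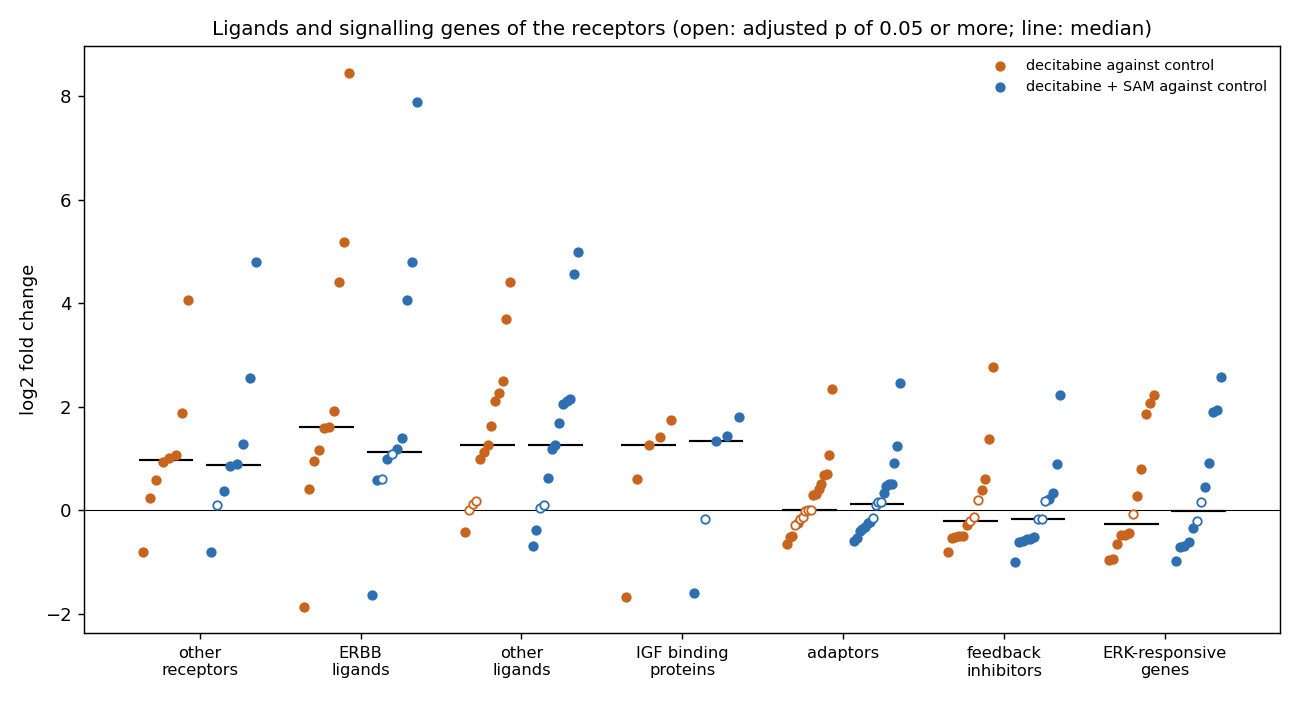
Log2 fold changes of the tested genes of 7 lists (points, filled where the adjusted p was under 0.05) with the median of each list (lines), for each treatment against control. Most ERBB ligands and other ligands lie above 0, while adaptors, feedback inhibitors and ERK-responsive genes lie on both sides. The highest point, NRG1, had no counts in control cells, and its plotted value depends on the prior count. Some filled genes passed the filter on low counts only through their treated libraries, and their fill is a description.

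The labelled cell type was checked with marker genes. Epithelial markers (EPCAM, CDH1, KRT8, KRT18 and KRT19) summed to 875 to 956 CPM in control cells, 869 to 921 under decitabine and 727 to 867 under SAM/decitabine. KLK3 had no counts, as is known of PC-3 cells. KLK2 had no counts in control cells and was at least 14.7-fold higher under decitabine and at least 13.4-fold higher under SAM/decitabine. It passed the filter only through its treated libraries and was named after its values were seen. Within the epithelial list, 2 of 5 rose and 2 fell with each treatment. Beside these, 36.3% of all genes rose and 32.5% fell under decitabine, and 35.9% and 31.3% under SAM/decitabine. The decrease of KRT18 under decitabine was called under 15 of 17 alternatives. It was lost with library size alone and in a fit with 1 library left out (adjusted p = 0.053). CDH1 (E-cadherin) rose from 1.87 CPM to 14.4 CPM and 16.9 CPM.

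Markers of other cell types moved with the treatments. Of 8 fibroblast and pericyte markers, 7 rose with each treatment and none fell, beside 36.3% and 35.9% of all genes that rose, and 4 of the 8 passed the filter only through treated libraries. Their summed level was 10.7 to 12.9 CPM in control cells, 112 to 153 under decitabine and 98.5 to 124 under SAM/decitabine. COL1A2, a collagen chain, had 0.614 CPM in control cells, 45.7 CPM under decitabine and 33.2 CPM under SAM/decitabine. PDGFRA belongs to this list too, whereas PDGFRB, which marks the same cells, was not called. Leukocyte and endothelial markers summed to 10.1 to 10.9, 32.7 to 43.3 and 38.3 to 45.5 CPM. All 4 tested of 6 rose with each treatment, beside 36.3% and 35.9% of all genes, and 3 of the 4 passed the filter only through treated libraries. PECAM1 made up most of this sum. Mast cell markers summed to 0 to 0.1, 0.0844 to 0.211 and 0.341 to 0.528 CPM. TPSAB1, a defining mast cell tryptase, was at 0 in all libraries, as KIT was in all treated ones. HDC, of the same list, went the other way and was named after its values were seen. It had 1 count over the controls, 8 under decitabine and 22 under SAM/decitabine. The part of these markers in the receptor results was not tested.

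EGFR-AS1, which overlaps EGFR on the opposite strand and was named after its values were seen, had 0.0666 CPM in control cells, 2.51 under decitabine and 3.61 under SAM/decitabine, and it passed the filter only through its treated libraries. Without a stated strand setting, reads of both genes cannot be told apart. The level of EGFR itself was 143 ± 19.3, 164 ± 9.3 and 146 ± 20.8 CPM (SD, n = 3) in the same libraries.

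For each receptor, the genes with the most similar log2 CPM over the 9 libraries were listed as a description. The libraries fall into 3 groups and share their depth, so a high Pearson coefficient mostly restates the group pattern, and no p-value is given. ERBB2 was most like SPINT1 (0.9994), MAGEA4 (0.9993) and SFTA1P (0.9983). IGF1R was most like MAEL (0.9982), INA (0.9981) and LCN2 (0.9978), and ERBB3 was most like RETSAT (0.9919) and ZNF266 (0.9916). AXL was most like ALDH1A3 (0.9949), C6orf47 (0.9926) and PABPC1 (0.9921). MET was most like UBE4A (0.9856), SPTLC3 (0.9843) and LRP12 (0.9829), and FGFR1 was most like ENSG00000244560 (0.9863), PAG1 (0.9781) and MAGI3 (0.9762). EGFR was most like UBR4 (0.958), ATP2B4 (0.9493) and NR2C2 (0.9304), and PDGFRB was most like TUBG2 (0.9362), RIOK2 (0.9072) and ACOT8 (0.9066).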

How the data were processed

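RNA-seq was performed on 9 PC-3 libraries, 3 per group, grouped by the sample labels. According to the study's methods and processing notes, the authors trimmed reads with Trim Galore 0.6.4 and counted them with kallisto on GRCh38.p13. The deposited values are estimated counts for each Ensembl gene and were not normalized. The deposited log2 CPM values were not used. The annotation release and strand setting are not given in the sources used here. SAM as a single agent was not analysed here.

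Counts were rounded to whole numbers. Of 60617 identifiers, 60357 matched GENCODE release 44, and 18532 genes passed edgeR's filterByExpr. All 9 libraries were fitted together with edgeR 4.0.16 in R 4.3.3 (TMM scaling, robust quasi-likelihood test, Benjamini-Hochberg adjustment over all genes tested, threshold 0.05). The labels do not say whether the replicate numbers pair the samples. They were not taken to do so, and no block was used in the main fit. Totals of 21934307 to 22489684 counts set the precision of low genes. Groups without counts were set to 3 counts for bounds. Pairs of libraries within a group gave chi-square values of 5.86 to 23.5 per degree of freedom over genes with at least 20 counts, so none was a copy. On simulated data for decitabine against control (3 draws, 200 changed genes, 15831 to 15853 genes tested), the test recovered 78.3% of 1.5-fold, 96.9% of 2-fold and 100% of 4-fold changes, and 4.66% of its calls were false. The changed genes were drawn among those with a mean of at least 20 control counts. All genes shared 1 value for the spread between libraries, and far fewer genes changed than were called in the data. These rates therefore do not cover genes with few counts or a wider spread.

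The receptor genes and all lists were chosen with earlier results of these data known. Named genes were all 10 receptors and the 3 genes most like each receptor. Of each list and comparison, up to 4 called genes were named as well. These had the largest absolute log2 fold change among genes with 50 or more counts on average in some group. HGF, KITLG, NRG1, ERBB4, MERTK, INSR, HDC, LRIG1, EGR1, IGFBP2, KLK2 and the genes that overlap a receptor were added after their values were seen. Some genes that these rules name are not reported here. The fits were repeated with DESeq2 1.42.0, with its size factors inside edgeR, with library size alone and with voom and limma 3.58.1. Further repeats used no filter, a minimum mean of 10 counts, the replicate number as a block, the 6 libraries of a comparison by themselves, each library left out in turn, and a log2 fold change over 1. Receptor levels were also divided by merged exon length. Tables and plots were made with pandas 2.3.3, numpy 2.4.6 and matplotlib 3.10.9 under Python 3.11.15.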

Additional observations from a re-analysis of the deposited data

How the results depend on the processing

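Under the 17 alternatives that scale, filter, model or leave out a library, the calls of IGF1R, ERBB2, ERBB3, MET, FGFR1 and AXL against the controls kept their direction and their side of the threshold with both treatments. In the self-test, changes of 1.5-fold were missed more often than larger ones. It held no changed genes with few counts. Genes with a few counts, such as FGFR2, KIT and PDGFRB, allow no firm statement. With a log2 fold change over 1 in size, 3 receptors were higher and 0 lower under decitabine, 2 were higher under SAM/decitabine and 0 were lower between both treatments. Under this threshold, 4208 of all genes were higher and 1139 lower under decitabine, 3962 and 1216 under SAM/decitabine, and 74 and 323 between both treatments. With library size alone, 3746 of all genes were lower under decitabine and 3857 under SAM/decitabine.

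The replicate number was tried as a block. Same-numbered libraries deviated from their group means with correlations between -0.017 and 0.233, so the numbers were not taken to pair the samples, and not every library correlated best with its own number. Between decitabine and SAM/decitabine each library did (0.233, 0.036 and 0.229, beside -0.22 to 0.014 for other pairs), a hint from the data, not the design. With the block, 2 receptors were lower between both treatments, ERBB3 and AXL (-0.23, adjusted p = 0.04). The cause was not tested, and no other receptor call changed under the block.

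In the 9 fits with 1 library left out, SAM/decitabine against decitabine gave between 381 and 2066 genes higher and between 480 and 1997 lower, of which 0 to 2 were receptors. The fewest came without SAM/decitabine replicate 2 and the most without SAM/decitabine replicate 3, and 408 and 596 came without decitabine replicate 2. Leaving out SAM/decitabine replicate 1 gave 591 and 773, and leaving out decitabine replicate 1 gave 846 and 937.

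The sign changed only for receptor differences near 0 that were not called. EGFR under SAM/decitabine against control was -0.00199 without a filter and -0.078 to 0.12 with 1 library left out. PDGFRB in that comparison was 0.0021 with DESeq2's size factors, 0.21 with library size alone, 0.0024 with DESeq2, 0.0095 with voom and limma, 0.0095 in a fit of 6 libraries, 0.0013 with the replicate block and -0.21 to 0.16 with 1 library left out. FGFR1 between both treatments was -0.0036 with DESeq2's size factors, -0.019 with library size alone, -0.0037 with DESeq2 and -0.019 to 0.049 with 1 library left out. Among all receptor changes, 379 values under an alternative kept direction and side of the threshold, 18 changed sign, 5 were called only under the alternative and 2 lost their call. Of the other genes named, 1453 values kept both and 43 lost their call.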
